A study of Mus musculus with 12 samples.

Results

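Gene expression in mouse liver was compared between the libraries labelled DM and those labelled CTL. All 4 DM and all 4 CTL libraries of a series of 12 entered the comparison, and a gene entered when its counts passed a filter on low values, which 14041 of the 54838 genes of the deposited table did. The groups are known by name only: the labels give liver as the tissue of every library, do not spell out DM or CTL, and state no strain, sex, age, genotype, diet or agent for either. By its title, the series is about an anti-diabetic action in liver of a red Chlamydomonas reinhardtii, a green alga, rich in the haem precursor protoporphyrin IX, and the labels do not say which groups were given it. The 4 libraries of the group DMH are not part of the comparison and are cited where a gene's values in them are informative. Whether each library is a different animal is not stated, and the p-values below therefore describe variation among these libraries, part of which may be technical.

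Most RNA of a liver comes from hepatocytes, which make plasma proteins, bile acids and glucose and break down drugs and steroids. The vessels between them hold Kupffer cells, the resident macrophages, which take up microbes, old red blood cells and debris through scavenger, complement and antibody receptors. When inflammatory cytokines such as interleukin-6 reach hepatocytes, these raise the acute phase proteins, among them serum amyloid A, haptoglobin and the orosomucoids.

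Genes of Kupffer cells were lower in DM livers as a group: 11 of the 13 markers measured fell, where 1.27% of all genes tested did, and the median fold change of the 13 was -2.07 on the log2 scale. Several antibody genes and receptors of phagocytic cells fell with them. Acute phase genes were lower in DM too, but much of their difference came from 1 library, CTL1. Genes that rose in DM were of more varied function and included the ubiquitin ligase gene Arel1, the steroid enzyme gene Hsd3b2, the bile and organic anion transporter genes Slco1b2 and Abcc2, splicing factor genes and targets of the tumour suppressor p53. Genes of insulin signalling, gluconeogenesis and haem synthesis gave no call by edgeR.

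Across all genes, 189 rose and 178 fell in DM by edgeR's quasi-likelihood test with a Benjamini-Hochberg adjusted p under 0.05, which is 1.35% and 1.27% of the genes tested and 2.61% in both directions. The libraries of the 2 groups did not overlap for any of these 367 genes, while 7.88% of all tested genes lay wholly higher and 7.45% wholly lower in DM. The median fold change of called genes was 1.03 for those that rose and -1.69 for those that fell, and that of all tested genes was -0.01 (log2). Without CTL1 the numbers were 151 (1.05%) and 139 (0.968%), of which 114 and 100 were among the genes called with all 8 libraries. The calls lay close to the threshold and depended on each library: 9 genes rose and 4 fell without CTL2, 20 and 17 without CTL3, 76 and 77 without CTL4, 45 and 15 without DM1, 1 and 1 without DM2, 54 and 69 without DM3, and 29 and 17 without DM4. With the DMH libraries in the same model 22 rose and 10 fell. By limma on the deposited FPKM 37 rose and 171 fell, so that 17.8% of the calls were in the direction of a rise, where 51.5% were by edgeR. The 367 genes had the same direction of change in each of these fits. As their groups did not overlap in these same libraries, that direction was nearly fixed in advance. Fold changes of all tested genes were above 0 for 49.1% of them. At an unadjusted p under 0.05 by edgeR there were 3033 of the 14041 genes, and DESeq2 called 673 higher and 680 lower. Counts of these kinds in the gene lists below have to be read beside those totals.

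**Figure D1:**
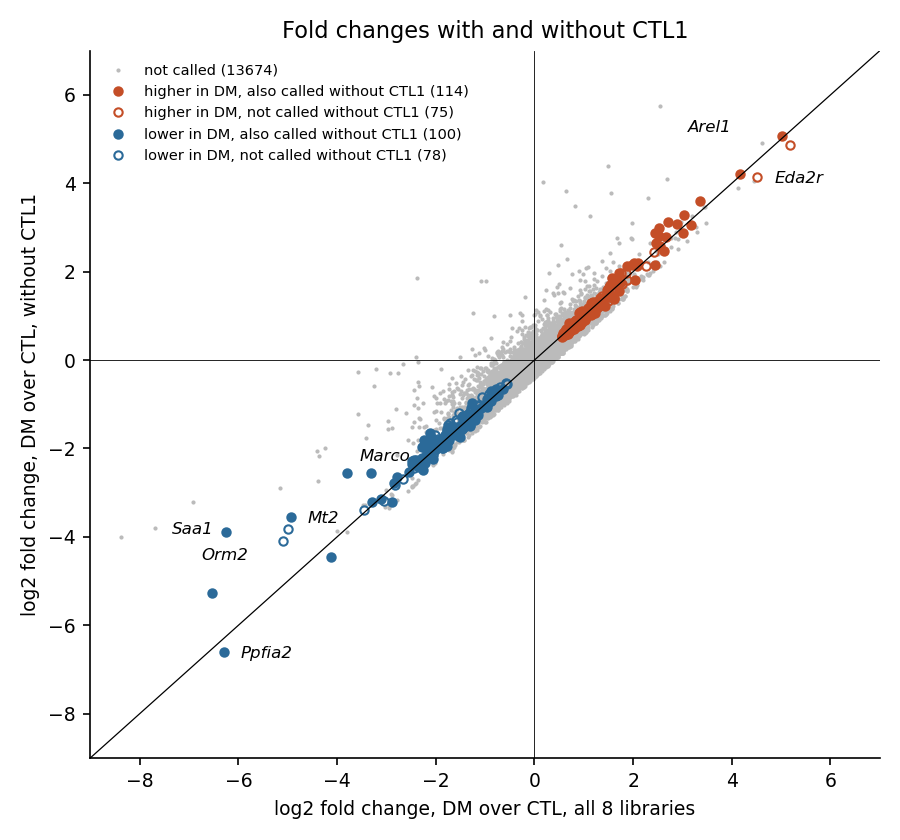
The log2 fold change of DM over CTL with all 8 libraries (horizontal axis) is plotted against the same value without CTL1 (vertical axis), 1 point a gene, with the diagonal marking equal values. Filled points are the 114 genes that rose and the 100 that fell in both fits, open points those called with all 8 libraries only, and Saa1 and Orm2 lie far above the diagonal on the left.

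Library totals were 13430122 to 17038017 counts in DM and 15512699 to 16321134 in CTL. The mitochondrial genome accounted for 24.2% ± 6.55 of all counts in DM and 15.4% ± 7.36 in CTL (SD, n = 4 each), from 18.7% in DM3 to 33.7% in DM2 and from 7.88% in CTL1 to 23.5% in CTL4. The groups overlapped, and the difference of 8.72 percentage points had a two-sided p of 0.2 by an exact permutation test, whose smallest possible p is 0.0286. A fit with this share as a covariate called 1 gene higher and 2 lower, and the direction of the 367 genes was the same in it. On the leading principal component, which held 31.7% of the variance, DM libraries lay at 26.9 to 45.9, CTL2 to CTL4 at -32 to -12.6, and CTL1 apart at -78.8. Albumin (Alb), the hepatocyte marker, was abundant in all libraries, at 21400 to 28800 CPM (counts scaled to a common library total with TMM factors) in DM and 17900 to 30400 CPM in CTL. The extraction text of the labels speaks of retinas: the photoreceptor genes Prph2, Crx, Nrl, Pde6b and Rcvrn had no count in any of the 8 libraries. Of the other 5 retina genes listed 1 passed the filter, Gnat1, a transducin of rod cells (named after its values were seen), at 6.49, 4.03, 18.7 and 9.31 CPM in DM and 54.7, 11.5, 12.8 and 18.7 CPM in CTL without a call.

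Among the Kupffer cell genes, the receptor of the growth factor that keeps macrophages alive, Csf1r (ENSMUSG00000024621), had 11.2, 17.5, 17.1 and 8.98 CPM in DM1 to DM4 and 40.2, 68.5, 52.1 and 37.9 CPM in CTL1 to CTL4. Each DM library was below each CTL library, and DM4 was the lowest of all. The fold change was -1.86 ± 0.28 (SE) on the log2 scale, with an adjusted p of 0.021 by edgeR and 0.0293 without CTL1. Adgre1, which encodes the macrophage antigen F4/80 (ENSMUSG00000004730, chromosome 17, 57358691 to 57483527 on GRCm38), had 1.03, 1.73, 1.96 and 0.991 CPM in DM and 6.84, 9.78, 5.15 and 6.42 CPM in CTL. Its change was -2.30 ± 0.32 (adjusted p = 0.0199 by edgeR), and -2.31 without CTL1. Clec4f, a lectin found on Kupffer cells and hardly on other macrophages, had 44.9, 74.2, 62.2 and 30.6 CPM in DM and 132, 176, 144 and 125 CPM in CTL, again without overlap, and fell by 1.45.

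The genes of the C1q molecule, which starts the classical complement cascade and is made by macrophages, moved together. C1qa averaged 14.3 ± 5.89 CPM in DM and 63.9 ± 13.6 CPM in CTL (SD, n = 4 each), C1qb 12.2 ± 4.39 in DM and 55.1 ± 16.8 in CTL, and their changes were -2.16 ± 0.33 and -2.17 ± 0.34 (adjusted p = 0.0237 and 0.025 by edgeR, both 0.0404 without CTL1). C1qc fell by 2.04. Cd5l, a secreted protein of macrophages that binds lipids and antibody, had 19.9, 38.1, 27.2 and 13.3 CPM in DM and 195, 174, 100 and 83.7 CPM in CTL (-2.49 ± 0.39, adjusted p = 0.0256 by edgeR). The folate receptor gene Folr2 fell by 2.19 ± 0.36, though 63.1% of its exonic bases lie under a gene model on the other strand, Gm10602, and no source used here says whether counting used strand. The same limit holds for Csf1r, of which 15.1% lies under Hmgxb3.

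Marco, a scavenger receptor for bacteria (ENSMUSG00000026390, chromosome 1, 120474538 to 120505024), showed a wide spread among CTL libraries. It had 2.97, 6.33, 6.06 and 4.43 CPM in DM and 187, 45, 23.1 and 19.3 CPM in CTL, so that CTL1 was far above the other CTL libraries and all 4 of these above DM. The change was -3.79 ± 0.79 with CTL1 (adjusted p = 0.0479) and -2.56 ± 0.37 without it (adjusted p = 0.0281, both by edgeR). Cd163, the receptor for haemoglobin bound to haptoglobin, and Timd4, a receptor for dying cells, fell by 2.05 ± 0.39 and 2.02 ± 0.38 and were not called without CTL1 (adjusted p = 0.0522 for each). The 2 markers with no call were Vsig4, a complement receptor, at 6.42, 10.3, 7.27 and 2.31 CPM in DM and 26.8, 41.5, 27.9 and 14.1 CPM in CTL, and the iron exporter gene Slc40a1, at 64.5 to 94.4 CPM in DM and 68.4 to 116 CPM in CTL. Hepatocytes and other cells make Slc40a1 too, and its groups overlapped.

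Summed over the 13 markers, Kupffer cell genes took 149 to 286 CPM in DM libraries and 510 to 945 CPM in CTL libraries, 510 to 906 without CTL1. Without CTL1 the median change was -2.06 and 9 of the 13 were called lower, where 0.968% of all genes were. The number called depended on the library left out: 8 without CTL4, 5 without DM3, 3 without DM4, 1 without CTL3 and none without CTL2, DM1 or DM2. All 13 lay below 0 in each of these fits, with medians from -2.27 to -1.82. DESeq2 called 12 of the 13 lower and limma on FPKM 12, while 0 were called with all 12 libraries in 1 model (13 below 0) and 0 with the mitochondrial share as a covariate (12 below 0). In bulk liver RNA, fewer cells of a type and less RNA per cell cannot be told apart. Markers of the other cells of the sinusoid were closer to equal: all 14 genes of sinusoidal endothelium lay below 0, with a median of -0.46, and 8 of 12 genes of stellate cells lay below 0, with a median of -0.22. Of 12 hepatocyte genes, 9 lay below 0, with a median of -0.32. None of these 3 lists had a call by edgeR. At an unadjusted p under 0.05, 5 endothelial, 0 stellate cell and 2 hepatocyte genes were lower, DESeq2 called 1, 0 and 1 of them lower, and limma on FPKM called none. Of all 14041 genes tested, 3033 reached that unadjusted p in either direction, and DESeq2 called 680 lower.

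**Figure D2:**
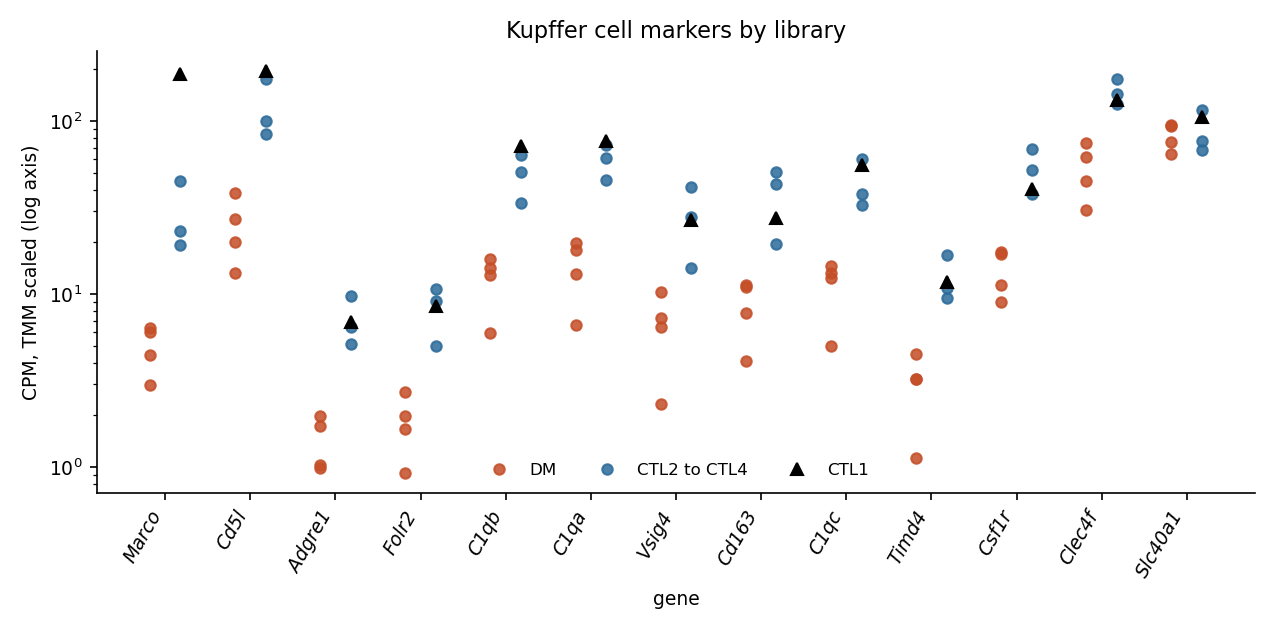
CPM on a log axis of the 13 Kupffer cell markers in the 4 DM libraries (left of each pair) and the 4 CTL libraries (right), with CTL1 as a triangle. For 12 of the 13 genes each DM point lies below each CTL point, as for 7.45% of all tested genes, Slc40a1 being the exception, and CTL1 stands apart only for Marco.

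PU.1, the product of Spi1, is a transcription factor that macrophages depend on, and Spi1 itself fell to 2.48, 3.54, 4.23 and 1.65 CPM in DM, against 8.6, 9.18, 7.97 and 7.72 CPM in CTL (-1.49 ± 0.28, adjusted p = 0.0364 by edgeR, 0.0553 without CTL1). Spi1 was chosen after its values were seen. The promoter of Marco is shown because it is the Kupffer cell gene with the largest change. The window is 250 bases before to 50 bases after the start of the gene, from RefSeq on GRCm38.p6, minus strand, chr1:120504975-120505274, and capitals mark the core of a PU.1 site, GAGGAA, searched on both strands.
Marco: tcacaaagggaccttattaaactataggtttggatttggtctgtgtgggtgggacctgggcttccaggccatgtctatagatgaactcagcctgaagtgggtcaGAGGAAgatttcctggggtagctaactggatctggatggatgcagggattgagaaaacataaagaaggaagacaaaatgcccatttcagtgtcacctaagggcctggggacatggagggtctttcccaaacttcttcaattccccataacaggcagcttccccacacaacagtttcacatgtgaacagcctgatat
The 1 match begins at position -146 from the start. Of 32851 RefSeq promoter windows of this length, 28.3% hold at least 1 such match, so its presence sets the window little apart.

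Some other genes of phagocytic cells fell as well. The antibody receptor Fcgr4 (ENSMUSG00000059089, chromosome 1, 171018920 to 171029761) had 1.72, 1.48, 1.64 and 0.661 CPM in DM and 12.4, 9.83, 8.69 and 7.33 CPM in CTL. No DM library reached a CTL library, and the change was -2.79 ± 0.32 (adjusted p = 0.0173, 0.0232 without CTL1, edgeR). Its neighbour Fcgr3, of which 15.2% of the 25-base sequence words occur in Fcgr2b, fell by 2.28 ± 0.38. Cyba, the membrane subunit of the oxidase that makes superoxide, changed by -2.27 ± 0.33. Wfdc17, a small secreted protein of activated macrophages, averaged 4.14 ± 1.74 CPM in DM and 19.3 ± 8.72 CPM in CTL (-2.22 ± 0.40). Lysozyme M (Lyz2), of which 40.5% of the words occur in Lyz1, was the 1 called gene of 9 tested markers of monocytes and monocyte-derived macrophages. It had 11.4, 13.8, 12 and 7.8 CPM in DM and 60.5, 63.7, 50 and 28.7 CPM in CTL and fell by 2.17 ± 0.28. Of these 9 markers 2 lay above 0 with all libraries and 3 without CTL1, with medians of -0.70 and -0.57. The share of all tested genes called lower was 1.27%. At an unadjusted p under 0.05, 5 of the 9 were lower, and DESeq2 called 2 lower. Clec1b, the podoplanin receptor CLEC-2, and Laptm5, a lysosomal membrane protein of blood cells, fell by 1.96 ± 0.40 and 1.76 ± 0.38, with adjusted p-values of 0.0679 and 0.0677 without CTL1. Cd68, Cybb, Tyrobp, Lgals3, Cd44 and Hk3, chosen after their values were seen, were called lower too, with changes from -2.07 for Lgals3 to -1.60 for Cybb. Of these 6, Cd68 and Cybb were not called without CTL1 (adjusted p = 0.0617 and 0.0518, edgeR).

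Antibody genes, the products of B and plasma cells, were the other immune group that fell. The kappa light chain gene Igkc (chromosome 6, 70726435 to 70726966) had 11, 14.7, 49.8 and 7.93 CPM in DM and 145, 165, 137 and 143 CPM in CTL. CTL libraries lay close together, and DM3 was the highest DM library by a wide margin while still below CTL. Its change was -2.82 ± 0.56 (adjusted p = 0.0437, and 0.0738 without CTL1, edgeR). Igha fell by 3.04 ± 0.61 (adjusted p = 0.0628 without CTL1, edgeR), Ighm by 1.31 ± 0.28 and Iglc1 by 2.55 ± 0.46. These 4 were the calls among 13 tested genes of B and plasma cells, where 1.27% of all tested genes were called lower. Iglc1 passed the low-count filter through its CTL libraries, so only a fall of it could be seen. The list's median was -1.47 (-1.56 without CTL1) and its summed level was 27 to 111 CPM in DM and 269 to 376 CPM in CTL. Without DM3 the number called was 5 and without CTL1 it was 3 (Ighm, Iglc1 and the newly called Cd79b, named after its values were seen), while it was 0 without any other single library, and DESeq2 called 8. Cd79a, a subunit of the B cell receptor, gave no call, at 0.462 to 1.81 CPM in DM and 0.261 to 1.3 CPM in CTL. None of 5 tested genes of T and NK cells and none of 7 of dendritic cells was called by edgeR (medians -0.91 and -0.52). At an unadjusted p under 0.05, 2 of the T and NK cell genes and 3 of the dendritic cell genes were lower, and DESeq2 called 1 of each.

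The lists of antigen presentation (20 tested), NF-kB targets and chemokines (15) and lysosome and autophagy (24) had 1 call each, all lower in DM. At an unadjusted p under 0.05, 12, 7 and 7 of their genes were lower, and DESeq2 called 8, 4 and 5 lower. By both, 1 lysosome and autophagy gene was higher. Among all 14041 genes tested, edgeR called 1.27% lower and DESeq2 called 680 lower. An unadjusted p under 0.05 by edgeR was reached by 3033 genes in either direction. H2-D1, a class I molecule that presents peptides on all cells, had 446, 471, 458 and 421 CPM in DM and 868, 802, 741 and 856 CPM in CTL. Libraries of a group lay close together and the groups far apart (-0.86 ± 0.14, adjusted p = 0.0262, 0.0281 without CTL1, edgeR). Of its words 18.7% occur in H2-K1, so how reads were divided among the class I genes is uncertain. The class II genes that antigen-presenting cells use were uncalled, with H2-Ab1 at 14.8, 23.3, 19.3 and 9.58 CPM in DM and 14.7, 74.6, 30.1 and 34.2 CPM in CTL. Vcam1, the adhesion molecule through which leukocytes settle, fell by 1.72 ± 0.31, and cathepsin Z (Ctsz) by 0.88 ± 0.14. Macrophages express these genes too, and the part of the 149 to 286 CPM of Kupffer cell markers in DM, against 510 to 945 CPM in CTL, in these changes was not tested.

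Acute phase genes lay below 0 for 22 of 23 members tested, but only Orm2 was called, where 1.27% of all tested genes were called lower. At an unadjusted p under 0.05, 18 of the 23 were lower, and DESeq2 called 5 lower. Orm2 encodes an orosomucoid, a plasma glycoprotein that binds drugs (ENSMUSG00000061540, chromosome 4, 63362449 to 63365878). It had 12.9, 13.9, 17.8 and 11.6 CPM in DM and 3630, 337, 205 and 86.6 CPM in CTL. DM libraries were even, CTL libraries spread over a wide range with CTL1 on top, and the groups did not overlap. The change was -6.25 ± 1.29 (adjusted p = 0.0465) and -3.90 ± 0.44 without CTL1 (adjusted p = 0.0232, both by edgeR). Of the 25-base words of Orm2, 31.3% occur in Orm1, so reads may have been divided between them. Orm1 had 544, 550, 490 and 377 CPM in DM and 11400, 1580, 1310 and 949 CPM in CTL and was called without CTL1 only (-1.38, adjusted p = 0.0302, edgeR).

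The summed level of the list was 11100 to 13800 CPM in DM and 19500 to 182000 CPM in CTL, where the highest value without CTL1 was 29600. Leaving CTL1 out moved the median of the list to -0.86, against -1.89 with it, and raised the number called to 7. In that fit 0.968% of all genes tested were called lower. Saa1, a serum amyloid A gene, had 33.9, 34.8, 35.8 and 29.1 CPM in DM and 26300, 1110, 176 and 98.6 CPM in CTL. Its change of -7.69 ± 1.95, and of -3.79 without CTL1, was not called (adjusted p = 0.076, and 0.0671 without CTL1, edgeR), and 53.4% of its words occur in Saa2. Haptoglobin (Hp), which carries free haemoglobin, had 3460, 3370, 3720 and 2700 CPM in DM and 36700, 6520, 5740 and 5240 CPM in CTL, without a call. The 1 member above 0 was Hamp, the iron hormone hepcidin, at 1240, 283, 1100 and 442 CPM in DM and 1500, 347, 30.7 and 353 CPM in CTL.

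**Figure D3:**
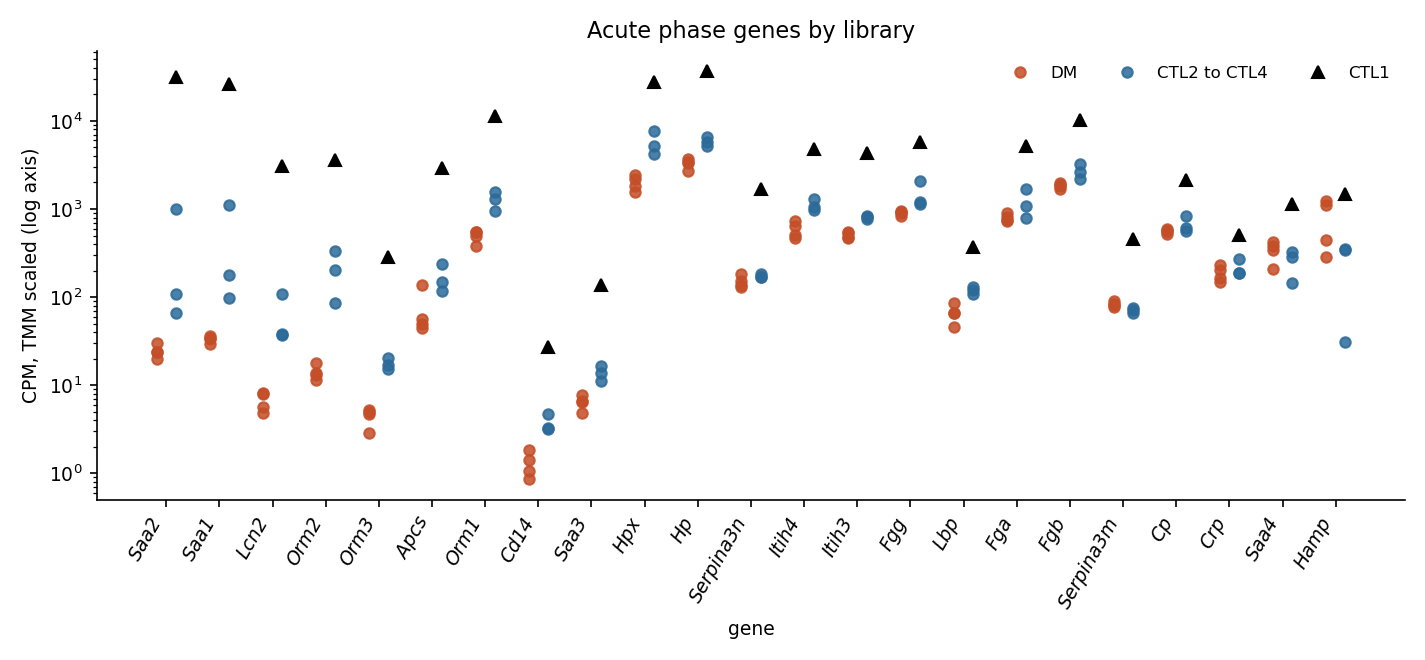
CPM on a log axis of the 23 acute phase genes in DM libraries (left of each pair), CTL2 to CTL4 (right, circles) and CTL1 (right, triangles). CTL1 is the highest library for each gene shown, and DM points lie below CTL2 to CTL4 for Saa1, Saa2, Lcn2, Orm1, Orm2 and Orm3 among others.

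Mt2, a metallothionein that binds zinc and copper and answers to metals and glucocorticoids, was also highest in CTL1. It had 14.1, 16.8, 15.5 and 9.58 CPM in DM and 1230, 81.1, 193 and 219 CPM in CTL (-4.94 ± 0.88, adjusted p = 0.0355, edgeR). Without CTL1 the change was -3.55 ± 0.36 (adjusted p = 0.0153), so it did not rest on that library. Its neighbour Mt1 had 57.7, 77.5, 73.5 and 44.3 CPM in DM and 4030, 199, 492 and 567 CPM in CTL and was called without CTL1 only (-2.73, adjusted p = 0.0281, edgeR). Of the exonic bases of Mt2, 73.5% lie under Gm45774 on the other strand. Mt2 was the 1 call among 15 tested glucocorticoid targets, whose median was -0.11, where 1.27% of all tested genes were called lower.

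The promoters of Orm2 and Mt2 are shown because these genes fell most among the called genes of the acute phase and glucocorticoid target lists. Both windows are from RefSeq on GRCm38.p6, plus strand. In Orm2, chr4:63362199-63362498, capitals mark the C/EBP motif TTNNGNAA, the site of a factor family of the acute phase. In Mt2, chr8:94172368-94172667, they mark the cores of metal response elements, TGCGCNC or TGCACNC. Both strands were searched.
Orm2: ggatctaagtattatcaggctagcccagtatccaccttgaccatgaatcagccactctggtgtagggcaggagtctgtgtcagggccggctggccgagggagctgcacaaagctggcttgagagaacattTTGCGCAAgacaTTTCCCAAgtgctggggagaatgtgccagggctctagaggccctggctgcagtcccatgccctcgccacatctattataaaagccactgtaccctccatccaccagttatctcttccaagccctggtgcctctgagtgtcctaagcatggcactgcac
Mt2: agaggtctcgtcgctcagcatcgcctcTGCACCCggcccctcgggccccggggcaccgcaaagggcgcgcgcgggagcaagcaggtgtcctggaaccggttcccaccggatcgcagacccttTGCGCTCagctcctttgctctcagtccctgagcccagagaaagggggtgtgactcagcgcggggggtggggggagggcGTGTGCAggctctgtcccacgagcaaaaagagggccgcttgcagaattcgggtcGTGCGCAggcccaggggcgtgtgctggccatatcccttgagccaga
Orm2 holds 2 matches, beginning at -120 and -108. Of all promoter windows 40.7% hold at least 1 and 13.6% at least 2. Mt2 holds 4, beginning at -223, -128, -50 and 5, where 25.7% of windows hold at least 1 and 0.517% at least 4.

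Neutrophil genes gave no call by edgeR with all 8 libraries, though all 4 tested were lower at an unadjusted p under 0.05 and DESeq2 called 1. Without CTL1, 2 of the 4 were called lower, S100a9 and Lcn2, named after their values were seen. In that fit 0.968% of all genes tested were called lower. S100a8, a calcium-binding protein of neutrophils, had 0.69, 1.07, 1.77 and 0.264 CPM in DM and 116, 8.38, 10.2 and 2.66 CPM in CTL, with CTL1 far above all others (-5.16 ± 1.31, adjusted p = 0.0765, edgeR). Its DM libraries alone would not have passed the low-count filter, so only a fall of it could be seen. S100a8 therefore adds no support to the list. The 4 neutrophil genes tested had a median of -4.78, and of -2.47 without CTL1, and a summed level over the whole list of 9.94 to 20.6 CPM in DM and 56.5 to 3420 CPM in CTL, 142 at most without CTL1. Lcn2 is on the acute phase list too. Its part in this sum was not separated, so the sum is no measure of neutrophils alone. The remaining 9 neutrophil genes did not pass the filter. The part of these cells in the acute phase values of CTL1 was not tested. Of 19 complement genes tested, 16 lay below 0 and 1 was called: Mbl2, a lectin that starts complement on microbial sugars, which rose. It had 315, 446, 441 and 344 CPM in DM and 141, 216, 149 and 152 CPM in CTL (1.23 ± 0.20, adjusted p = 0.025, 0.0361 without CTL1, edgeR). At an unadjusted p under 0.05, 1 complement gene was higher and 8 were lower, and DESeq2 called 1 higher and 6 lower. By edgeR 1.35% of all tested genes were called higher and 1.27% lower.

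Among genes that rose, Arel1 stood alone in strength. It encodes a ubiquitin ligase that counters cell death (ENSMUSG00000042350, chromosome 12, 84918148 to 84970900). It had 37.9, 39.7, 35.4 and 58.3 CPM in DM and 1.43, 1.35, 1.5 and 0.973 CPM in CTL, a change of 5.02 ± 0.24 (adjusted p = 7.27e-05, 0.00038 without CTL1, edgeR). Arel1 was the 1 gene of the 64 called genes given by the naming rule that stayed called whichever of the 8 libraries was left out. In DMH, scaled over all 12 libraries, Arel1 was split, at 0.929 and 2.5 CPM in DMH1 and DMH2 and 36.9 and 43.6 CPM in DMH3 and DMH4. With DMH in the same model its adjusted p was 0.0626.

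The counterpart among genes that fell was Ppfia2, which encodes the synaptic scaffold protein liprin-alpha-2 (ENSMUSG00000053825, chromosome 10, 106470339 to 106935952). It had 0.069, 0.494, 0.19 and 0.132 CPM in DM and 4.88, 17.1, 15 and 32.4 CPM in CTL (-6.30 ± 0.74, adjusted p = 0.0173, 0.00311 without CTL1, edgeR). It passed the low-count filter only through its CTL libraries, so only a fall of it could be seen. It shares 2436 exonic bases, 22.3% of its own, with Acss3, a mitochondrial acyl-CoA synthetase gene on the other strand, and its level cannot be told apart from reads of Acss3 there. Acss3 had 42.6, 46, 29.2 and 59.6 CPM in DM and 0.651, 18.7, 15.8 and 34.2 CPM in CTL, without a call. Across CTL2 to CTL4 both genes had the same order, lowest in CTL3 and highest in CTL4.

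Wide gaps between libraries of 1 group were common in the table. Of 9326 tested genes with a mean of at least 5 CPM, 672 (7.21%) had libraries at least 4-fold apart with none between them in DM, CTL or DMH, as Arel1 had in DMH. Among called genes of that level, 6 of 168 that rose (3.57%) and 5 of 94 that fell (5.32%) had such a gap. The insulin receptor gene Insr had 106, 10, 122 and 8.85 CPM in DM and 141, 77.5, 87.2 and 101 CPM in CTL, so that DM1 and DM3 lay within the range of CTL and DM2 and DM4 far below it. Alg2, a mannosyltransferase of the sugar chains put on secreted proteins, had 2.69, 17.7, 12.8 and 15.7 CPM in DM and 2.34, 2.21, 2.04 and 2.46 CPM in CTL. It was called (2.43 ± 0.50, adjusted p = 0.0437, edgeR) with DM1 next to CTL, and was not called without CTL1 (adjusted p = 0.0816).

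**Figure D4:**
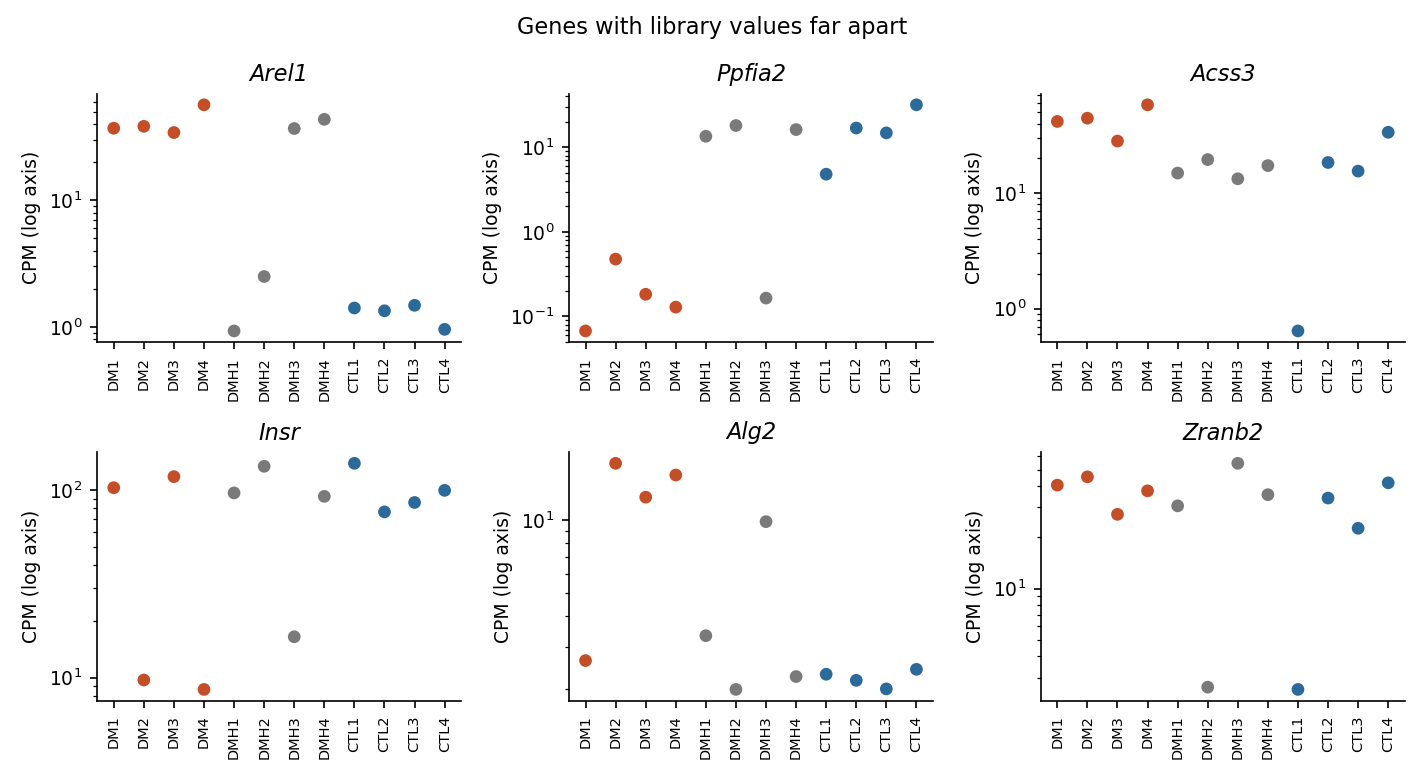
CPM on a log axis, scaled over all 12 libraries, of 6 genes in DM (red), DMH (grey) and CTL (blue), 1 point a library. Arel1 and Ppfia2 separate DM from CTL while DMH libraries fall at both levels, and Insr, Acss3, Alg2 and Zranb2 have libraries of 1 group far apart.

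Genes of steroid metabolism and of transport were among those that rose. Hsd3b2, a 3-beta-hydroxysteroid dehydrogenase (chromosome 3, 98709255 to 98724543), had 55.7, 63.2, 49 and 68.6 CPM in DM and 6.38, 5.87, 9.23 and 16.7 CPM in CTL (2.63 ± 0.34, adjusted p = 0.0173, edgeR), and 16.6% of its words occur in Hsd3b3. It was the 1 call among 15 steroid metabolism genes, 14 of which lay above 0 (median 0.66). Slc17a8, a glutamate carrier of vesicles, had 38.6, 37.6, 38.9 and 48.1 CPM in DM and 5.01, 7.12, 11.9 and 15.9 CPM in CTL (2.03 ± 0.33). The potassium and chloride carrier gene Slc12a7 rose by 1.74 ± 0.24. Sucnr1, the receptor for succinate, rose by 1.72 ± 0.26, with 16.4 to 27.2 CPM in DM and 4.17 to 9.4 CPM in CTL. Of 19 genes for channels, carriers and receptors these 3 rose and 1 fell, the prostaglandin carrier gene Slco2a1 (-0.96 ± 0.16). Of all tested genes 1.35% rose and 1.27% fell. In that list 10 genes lay above 0 and 9 below, with a median of 0.02. It was written with earlier results of these data known, so its calls are no test of such genes.

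The other leading genes that rose had little in common by known role. Tef, a transcription factor driven by the circadian clock, had 40.5, 9.71, 20.8 and 30 CPM in DM and 6.9, 2.56, 3.18 and 2.98 CPM in CTL (2.70 ± 0.49, adjusted p = 0.0355, edgeR). It was the 1 call among 19 clock genes, 16 of which lay above 0 with a median of 0.27, and other genes with a strong daily rhythm overlapped between groups, such as Dbp at 32.2 to 80.8 CPM in DM and 2.06 to 54.7 CPM in CTL. Among all tested genes 1.35% were called higher. The time of day of collection is not in the labels. Cplane1, needed for cilia, rose by 2.55 ± 0.35, Taf1, the large subunit of the general factor TFIID, by 2.46 ± 0.36, and Qtrt2, a subunit of the enzyme that puts queuine into transfer RNA, by 1.69 ± 0.22. Lrit1, a leucine-rich membrane protein known from photoreceptors, rose by 1.62 ± 0.33, and Alg11, an enzyme of the same sugar pathway as Alg2, by 1.58 ± 0.26 with 42.3 to 61.5 CPM in DM and 10.7 to 25.2 CPM in CTL.

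Sugar and fat metabolism had single calls, each a result for the gene and not for its list. Of all tested genes 1.35% rose and 1.27% fell. Mlxipl, which encodes ChREBP, the transcription factor that answers to glucose, had 397, 347, 391 and 455 CPM in DM and 159, 148, 235 and 236 CPM in CTL (1.03 ± 0.20, adjusted p = 0.0369, 0.0518 without CTL1, edgeR), the only call of 21 genes of glycolysis and fructose use. Pygl, the phosphorylase that releases glucose from glycogen, rose by 0.70 ± 0.14, the only call of 14 glycogen genes (adjusted p = 0.0424, 0.0611 without CTL1). Etfa, which passes electrons from fat oxidation to the respiratory chain, had 396, 465, 388 and 376 CPM in DM and 176, 209, 227 and 242 CPM in CTL (0.93 ± 0.15). It was the 1 call of 23 genes of fat oxidation and ketogenesis, 16 of which lay below 0. Pnpla2, the lipase that opens fat droplets, fell by 0.73 ± 0.13 with 48.7 to 55.3 CPM in DM and 73 to 98.2 CPM in CTL, the only call of 21 genes of fat droplets and fatty acid uptake. Sdsl, a serine dehydratase, fell by 2.24 ± 0.35 (8.9, 8.31, 5.43 and 6.61 CPM in DM and 61.1, 30.1, 24.7 and 22.2 CPM in CTL), the only call of 23 genes of amino acid breakdown.

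Genes that bear on the title's question of glucose and fat were mostly uncalled. Pck1, the enzyme that commits carbon to glucose, averaged 2960 ± 524 CPM in DM and 2770 ± 680 CPM in CTL (SD, n = 4 each), a difference of 0.10 ± 0.24. G6pc, which releases free glucose, had 159, 396, 257 and 177 CPM in DM and 106, 178, 143 and 137 CPM in CTL, with DM2 the highest and DM1 and DM4 inside the CTL range (0.81 ± 0.30, adjusted p = 0.166, edgeR). Pyruvate kinase (Pklr) averaged 55.6 ± 19.5 CPM in DM and 31.6 ± 12.4 CPM in CTL. Of 21 gluconeogenesis genes 15 lay below 0 with all libraries and 10 without CTL1, where the median was 0, against -0.26 with it. None was called by edgeR. At an unadjusted p under 0.05, 1 was higher and 3 were lower, and DESeq2 called 2 lower. Among all 14041 genes tested, 3033 reached that p and DESeq2 called 1353, so these counts do not set the list apart. None of 23 insulin signalling genes was called (median -0.04), with 1 higher and 1 lower at an unadjusted p under 0.05 and 1 called higher by DESeq2. Irs2, an adaptor of the insulin receptor, differed by -0.19 ± 0.47 and Igfbp1, a target of FOXO factors, by -0.99 ± 0.64, or -0.17 without CTL1.

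Srebf1, the transcription factor that insulin uses to drive fat synthesis, had 43.4, 43.3, 104 and 48.1 CPM in DM and 28, 10.1, 12.9 and 27.6 CPM in CTL. The groups did not overlap, but the gene was not called (1.60 ± 0.43, adjusted p = 0.0864, edgeR). Its target Fasn had 49.1, 44.9, 153 and 46.5 CPM in DM and 62.7, 20.4, 48.8 and 75.4 CPM in CTL, so that DM3 was high for both. Scd1, the desaturase, averaged 1650 ± 871 CPM in DM and 3150 ± 2190 CPM in CTL, Cpt1a, the gate of fat oxidation, 219 ± 36.1 CPM in DM and 283 ± 36.7 CPM in CTL, and the liver hormone gene Fgf21 7.76 ± 1.85 CPM in DM and 15.5 ± 11.8 CPM in CTL, none of them called. None of 19 tested genes of fatty acid synthesis and none of 23 of cholesterol synthesis and uptake was called by edgeR (medians 0.20 and 0.02). At an unadjusted p under 0.05, 2 genes of fatty acid synthesis were higher and 2 lower, and DESeq2 called 2 higher and 1 lower, while no cholesterol gene reached either. Among all 14041 genes tested, 3033 reached that p and DESeq2 called 1353. The cholesterol median moved with single libraries, to 0.50 without CTL1 (19 of 23 above 0) and to -0.72 without DM3 (18 of 23 below 0).

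Haem genes, which bear on protoporphyrin IX, gave no call by edgeR with all 8 libraries either. All 14 genes of haem synthesis differed by less than 1 on the log2 scale, with a median of 0.10. At an unadjusted p under 0.05, 2 were higher and 1 was lower, and DESeq2 called 1 higher and 1 lower. Among all 14041 genes tested, 3033 reached that p and DESeq2 called 1353, so these counts set the list little apart. Alas1, the first enzyme of the path, averaged 217 ± 40.7 CPM in DM and 223 ± 47.5 CPM in CTL, a difference of -0.04 ± 0.20. Fech, which puts iron into protoporphyrin IX, averaged 77.4 ± 9.81 CPM in DM and 62 ± 4.82 CPM in CTL (0.32 ± 0.14, adjusted p = 0.218, edgeR). Haem oxygenase 1 (Hmox1), which breaks haem down and is strong in Kupffer cells, had 9.31, 9.95, 8.97 and 4.89 CPM in DM and 23.1, 29.2, 19 and 10.6 CPM in CTL, without overlap and without a call (-1.31 ± 0.33, adjusted p = 0.0713). The 13 tested genes of haem breakdown and porphyrin handling had a median of -0.05. Without CTL1, edgeR called 1 of them higher and 1 lower, where 1.05% and 0.968% of all genes were. With all libraries, DESeq2 called 1 higher and 2 lower. Their summed level was 10500 to 12500 CPM in DM and 15200 to 66100 CPM in CTL, 20100 at most without CTL1.

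Of the bile acid genes, 2 carriers rose. Slco1b2, the uptake carrier for bile acids and drugs, had 1200, 1050, 763 and 1160 CPM in DM and 499, 497, 511 and 516 CPM in CTL (1.04 ± 0.18, adjusted p = 0.0293, 0.0376 without CTL1, edgeR). Abcc2, the export pump for conjugated bilirubin, had 417, 454, 624 and 469 CPM in DM and 194, 274, 267 and 298 CPM in CTL (0.93 ± 0.19, adjusted p = 0.0442, 0.0504 without CTL1). These were 2 of 14 transport genes tested, whose median was 0.22, where 1.35% of all tested genes rose. Cyp7a1, the rate-limiting enzyme of bile acid synthesis, had 38.9, 101, 91.8 and 94.7 CPM in DM and 31.7, 16.7, 27.7 and 36 CPM in CTL, with DM1 next to CTL. It was just short of a call (1.54 ± 0.34, adjusted p = 0.05, edgeR), and 16 of 17 bile acid synthesis genes lay above 0 (median 0.28), none called. At an unadjusted p under 0.05, 6 of the 17 were higher, and DESeq2 called 4.

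Genes of foreign compound metabolism lay above 0 for 19 of 29 P450 genes and 18 of 27 conjugation enzymes and receptors, with 1 call in each list. Of all tested genes 1.35% were called higher. Cyp2c50, a cytochrome P450 of which 25.4% of the words occur in Cyp2c37, had 639, 718, 744 and 580 CPM in DM and 192, 305, 342 and 314 CPM in CTL (1.22 ± 0.21, adjusted p = 0.028, 0.0256 without CTL1, edgeR). The median of the P450 list was 0.23. Ahr, the receptor for dioxins and plant indoles, rose by 0.91 ± 0.19 in a list with a median of 0.42. Cyp2u1, which hydroxylates long fatty acids, rose by 1.61 ± 0.34 and was the 1 call of 22 genes that are higher in male than in female mouse liver. In that list 18 lay above 0, with a median of 1.17 and of 0.92 without CTL1. Major urinary protein genes, which code for pheromone carriers, were low in CTL1: Mup7 had 3080, 4600, 1630 and 3630 CPM in DM and 12.3, 2530, 1880 and 255 CPM in CTL. The sum of the list was 21300 to 44900 CPM in DM and 2660 to 22100 CPM in CTL, with 10300 as the lowest value without CTL1. Of 11 tested genes that are higher in female liver, 6 lay above 0 and none was called by edgeR or DESeq2, with 3 higher and 2 lower at an unadjusted p under 0.05. The sum of that list, with its untested genes, was 86.7 to 164 CPM in DM and 89.7 to 525 CPM in CTL. Its highest CTL value without CTL1 was 114 CPM.

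Defence against oxidation, p53 and splicing had small sets of calls. Nfe2l2, which encodes NRF2, the factor that turns on antioxidant genes, had 126, 111, 205 and 149 CPM in DM and 57.6, 63.6, 56.8 and 55.3 CPM in CTL (1.34 ± 0.20, adjusted p = 0.0205, 0.0326 without CTL1, edgeR). Thioredoxin (Txn1) rose by 0.69 ± 0.13, while G6pdx, the enzyme that makes NADPH, fell by 1.29 ± 0.27 at 1.45 to 2.55 CPM in DM and 3.53 to 5.67 CPM in CTL (adjusted p = 0.0765 without CTL1, edgeR). The rest of the 25 NRF2 targets and antioxidant enzymes were uncalled, and their median was -0.13. Of 21 tested p53 targets 16 lay above 0 (median 0.70, and 0.72 without CTL1) and 3 rose, where 1.35% of all tested genes did. Ccng1, a cyclin, had 28.5, 46.6, 42.2 and 43.5 CPM in DM and 22.5, 18.1, 19.4 and 16 CPM in CTL (1.08 ± 0.18, adjusted p = 0.0281, edgeR), Aen, a nuclease of dying cells, rose by 0.80 ± 0.16 (adjusted p = 0.066 without CTL1, edgeR), and Eda2r, a death receptor, had 0.966, 4.44, 8.34 and 3.04 CPM in DM and 0, 0.201, 0.479 and 0 CPM in CTL (adjusted p = 0.0787 without CTL1, edgeR). Eda2r passed the low-count filter only through its DM libraries, so only a rise of it could be seen, and it adds no support to the list. With 1 library left out, 2 p53 targets were called without CTL1, Ccng1 and the newly called Mdm2 (named after its values were seen), 1 without DM1 and none otherwise, and DESeq2 called 7 with all libraries. Cdkn1a, the best known p53 target, was uncalled at 6.35 to 11.1 CPM in DM and 1.17 to 30.1 CPM in CTL.

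Of 34 splicing factor genes tested, 4 rose, where 1.35% of all tested genes did, and 32 lay above 0 with all libraries and 33 without CTL1, with a median of 0.38 in both. Srsf11 had 135, 120, 136 and 122 CPM in DM and 66.8, 52.1, 67.2 and 83.5 CPM in CTL (0.93 ± 0.16, adjusted p = 0.0281, edgeR). Luc7l2, of the U1 particle, rose by 1.75 ± 0.36, Dhx15, a helicase that takes spliceosomes apart, by 1.49 ± 0.26 and Hnrnph1 by 0.88 ± 0.17, where Luc7l2 and Hnrnph1 were not called without CTL1 (adjusted p = 0.0522 and 0.0545). With 1 library left out, 2 splicing factor genes were called without CTL1, 1 without CTL4, 1 without DM3 and none otherwise, and DESeq2 called 8 with all libraries. Malat1, a long RNA kept in the nucleus near splicing factors, had 223, 545, 494 and 464 CPM in DM and 119, 149, 108 and 222 CPM in CTL. DM1 and CTL4 lay next to each other, and Malat1 was called with CTL1 (1.53 ± 0.32, adjusted p = 0.0458) and not without it (adjusted p = 0.0859). Of 9 tested RNAs kept in the nucleus it was the 1 call (median 0.06).

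Among genes of dividing cells, 2 fell. Mki67, the marker of cycling cells, had 1.72, 2.47, 2.15 and 1.32 CPM in DM and 13.2, 10, 11.4 and 6.16 CPM in CTL (-2.41 ± 0.30, adjusted p = 0.0173, 0.0259 without CTL1, edgeR), and topoisomerase Top2a fell by 2.02 ± 0.36 (adjusted p = 0.0504 without CTL1, edgeR). They were the calls among 20 tested cell cycle genes, 18 of which lay below 0 (median -0.64). Of all tested genes 1.27% were called lower. Top2a passed the low-count filter through its CTL libraries, so only a fall of it could be seen. Of 75 cytosolic ribosomal protein genes 73 lay below 0, with a median of -0.43 and of -0.37 without CTL1. None was called by edgeR, 40 were lower at an unadjusted p under 0.05 and DESeq2 called 20 lower. Of the 75, 31 did not overlap between groups, where 7.45% of all tested genes lay wholly lower in DM. The 54 mitochondrial ribosome genes had a median of -0.06 and no call by edgeR or DESeq2, with 3 higher and 7 lower at an unadjusted p under 0.05. Rpph1, the RNA of the enzyme that trims transfer RNA, fell by 1.72 ± 0.30 at 0.948 to 1.73 CPM in DM and 2.88 to 4.99 CPM in CTL, the 1 call of 5 tested small RNAs, and it overlaps Ccnb1ip1 over 73% of its length. Proteins encoded by the mitochondrial genome lay above 0 for 12 of 13 genes without a call by edgeR or DESeq2 (median 0.88), with 2 higher at an unadjusted p under 0.05. The 50 nuclear genes of oxidative phosphorylation had a median of -0.01 and no call by edgeR, with 3 higher at an unadjusted p under 0.05 and 1 called higher by DESeq2.

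In all, 27 of 62 gene lists held a called gene, 15 of them a gene that rose and 14 one that fell. Of all tested genes 1.35% rose and 1.27% fell, so a single call in a list is a result for that gene only. The other 35 lists held none by edgeR, and 26 of these held a gene called by DESeq2. DESeq2 called 1353 of all 14041 genes tested, so a list of many genes can hold such a call without standing out. Of the 35, 33 had at least 3 tested genes, with medians from -4.78 for neutrophils to 0.88 for mitochondrially encoded proteins.

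**Figure D5:**
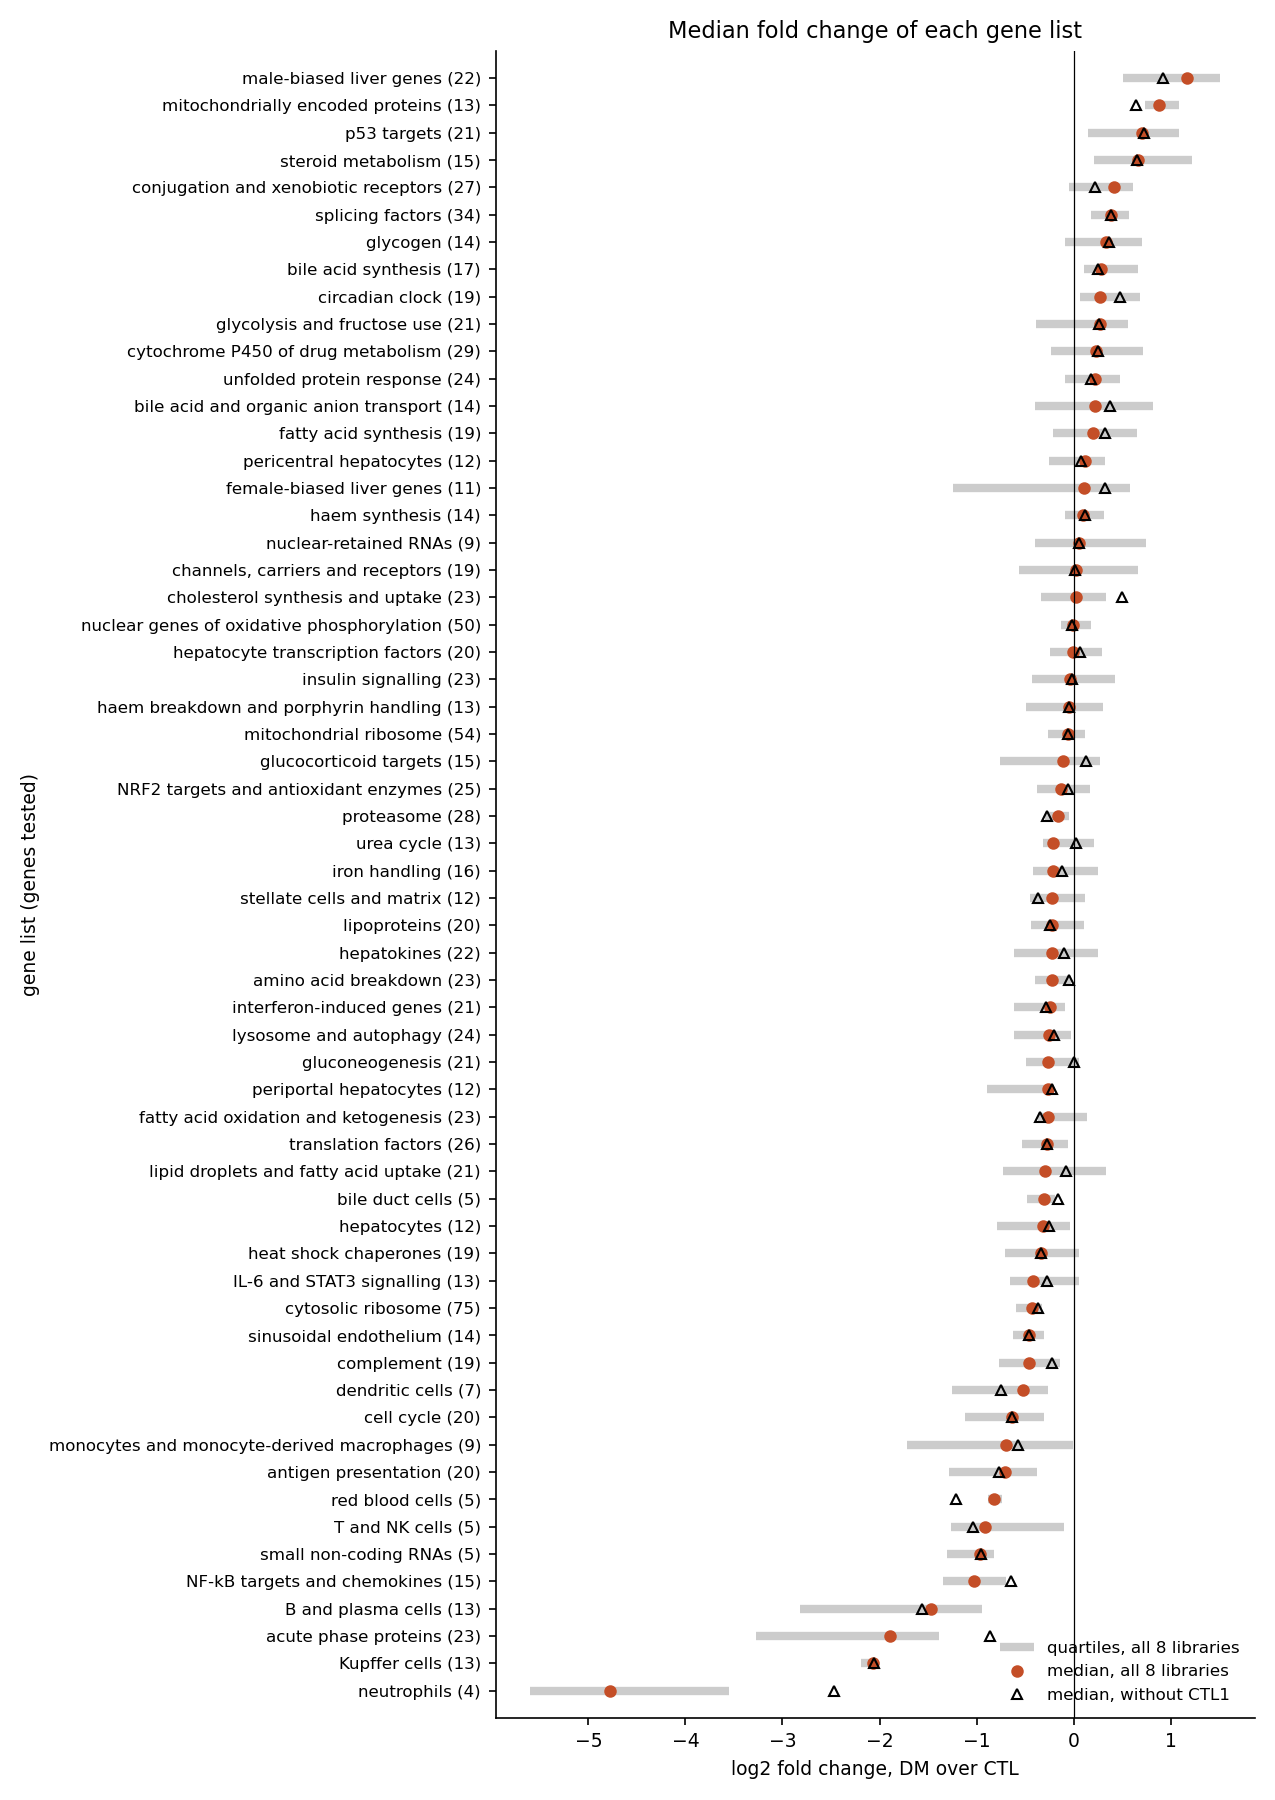
Median log2 fold change of DM over CTL of the 60 gene lists with at least 3 tested genes (circles, all 8 libraries), with the range between quartiles as a bar and the median without CTL1 as a triangle. Kupffer cell genes keep their median of -2.07 without CTL1 (-2.06), while acute phase genes move to -0.86 and neutrophil genes to -2.47.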

How the data were processed

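Total RNA of mouse liver was sequenced in 12 libraries. Per the series' design text, reads were checked with FastQC 0.11.8, trimmed with Trimmomatic 0.36, mapped to GRCm38 by HISAT2 2.1.0, and summed over genes by StringTie. The sources used here give neither the StringTie version nor its annotation or strand setting. The submitters' processing notes also list DESeq2 without version or role. For each gene and library the authors deposited a raw read count and an FPKM value. No TMM factor, which that text mentions, was visible in the deposited FPKM: within 1%, it was the count over a constant length and the library's unscaled total for 13833 of 13833 genes checked.

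The counts of the 4 DM and 4 CTL libraries were tested with edgeR 4.0.16 in R 4.3.3 (robust quasi-likelihood F test, TMM factors, filterByExpr with min.count 10 and min.total.count 15), with 6 residual degrees of freedom. A call is a Benjamini-Hochberg adjusted p under 0.05 over all tested genes. Fold changes are log2 of DM over CTL with their standard error (SE), and levels are CPM with TMM factors. The filter and test were tested on simulated data. For genes with many counts, counting error is small beside the spread between libraries, which limits the precision. For genes with few counts in the lower group, such as Ppfia2, Iglc1, Top2a and Eda2r, counting error limits it too.

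The comparison and the 62 gene lists were chosen with earlier results of these data known. Lists were written from textbook knowledge and are described by counts and medians without a test of the list. Named genes are the 12 that rose and the 12 that fell most among protein-coding genes called with and without CTL1, without overlap and with a mean of at least 5 CPM. They also include the 6 largest changes at that level called only with CTL1, up to 4 called members of each list by smallest p, and 21 genes taken whatever their result; genes outside the rule are marked. A few genes are not reported here. Alternatives were leaving out each library, all 12 libraries in 1 model, the replicate number as a block, RLE size factors, other filters, DESeq2 1.42.0, limma 3.58.1 on log2(FPKM + 1), a fold of 2 with unadjusted p under 0.05, leaving out mitochondrial genes and, chosen after seeing the data, leaving out genes with wide gaps within a group and the mitochondrial share as a covariate. Exonic overlap and shared 25-base words were computed on GENCODE M21. Chi-square values of library pairs within a group, divided by their degrees of freedom, were 39.5 to 432, so no library repeats another. Promoters are from RefSeq, where 63 of the 83 named genes have a window. The numbers in the labels did not pair DM with CTL libraries: correlations of same-numbered deviations were -0.0401 to 0.0588.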

Additional observations from a re-analysis of the deposited data

Results flagged for a closer look

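Of 166 groups of 4 libraries examined for the named genes, 12 held a library far from the other 3 by Dixon's ratio at its 95% critical value, and chance flags about 1 in 20 groups. In DM, Cplane1 was low in DM1 at 9.87 CPM, where the others had 27.2 to 30.1, and Cyp7a1 was low in DM1 at 38.9 CPM, where the others had 91.8 to 101. DM3 was high for Fasn at 153 CPM (others 44.9 to 49.1), for Srebf1 at 104 CPM (others 43.3 to 48.1) and for Iglc1 at 1.26 CPM (others 0.329 to 0.345). DM4 was low for Hmox1 at 4.89 CPM (others 8.97 to 9.95) and for Vcam1 at 4.62 CPM (others 9.31 to 10.3), and high for Slc17a8 at 48.1 CPM (others 37.6 to 38.9). DM2 was high for Rpph1 at 1.73 CPM (others 0.948 to 1.06). In CTL, CTL2 was low for Cplane1 at 3.16 CPM (others 4.36 to 4.6) and for Top2a at 1.81 CPM (others 2.72 to 2.87), and CTL4 was high for Scd1 at 6430 CPM (others 1820 to 2220).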

How the results depend on the processing

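The 367 called genes had the same direction in each alternative that tested them, and none of the 64 called genes given by the naming rule reversed. As their groups did not overlap in these same libraries, this was nearly fixed in advance and is no measure of stability. The number of calls moved widely. Leaving out 1 library gave 1 to 151 genes that rose and 1 to 139 that fell, lowest without DM2 and highest without CTL1. All 12 libraries in 1 model gave 22 and 10, and the same without CTL1 gave 13 and 8. DESeq2 gave 673 and 680, which included all 367, limma on FPKM gave 37 that rose, and the rule of a 2-fold change with unadjusted p under 0.05 gave 388 and 654. Leaving out genes with wide gaps gave 316 and 283, and the mitochondrial share as a covariate 1 and 2, both alternatives chosen after seeing the data. The replicate block gave 2 and 8, and since the numbers did not pair the libraries this is no measure of the strength of an effect. RLE factors, both other filters and leaving out mitochondrial genes kept both counts within 1.5 times. The mitochondrial share differed by 5.55 to 11.4 percentage points when 1 library was left out. List medians were recomputed without each library, with 12 libraries, with RLE factors and without mitochondrial genes, and 10 of 681 values moved by more than 1 SD of the list's mean log2 CPM between libraries of a group. Without CTL1 these were neutrophils to -2.47, complement to -0.22 and gluconeogenesis to 0, and the other 7, all without a library other than CTL1, were in glycolysis, glycogen, P450 and unfolded protein response genes. Leaving out a library other than CTL1 was added here after seeing the data. Lists with a wide spread between libraries moved further within 1 SD: the red blood cell median, -0.82 with all libraries, was 0.31 without CTL3 and -2.28 without DM2. Of the 13 Kupffer cell genes 4 were called with the replicate block. Uncalled genes near 0 changed sign: Alas1 without CTL4 (0.10), DM2 (0.02) or DM4 (0.05), with a lowest value of -0.16, Alb without CTL2 (0.00) or CTL4 (0.02), lowest -0.22, Fasn without DM3 (-0.16), highest 0.76, Irs2 without DM1 (0.06), lowest -0.78, or with the covariate (0.40), and Pck1 without DM2 (-0.02), highest 0.29, with 12 libraries but CTL1 (-0.01), by limma (-0.04) or with the covariate (-0.22). The cause was not tested. Genes below the filter were not tested at this depth.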

Other observations

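The genes given below were chosen after their values were seen. Haemoglobin gene levels differed widely between libraries of a group: Hba-a1 had 160, 951, 59.9 and 110 CPM in DM and 47, 613, 1380 and 95 CPM in CTL, and none of 5 tested red blood cell genes was called by edgeR or DESeq2 or had an unadjusted p under 0.05. Irs1, an adaptor of insulin signalling, had 26.5, 26.5, 32.3 and 34.2 CPM in DM and 0.782, 1.56, 22.5 and 25.7 CPM in CTL, so that CTL1 and CTL2 stood apart. Lpin1, a phosphatase of fat synthesis, had 9.04, 67.4, 128 and 14.2 CPM in DM and 126, 0.953, 6.53 and 57.1 CPM in CTL. Tapbp, which loads peptide onto class I molecules, had 1.31, 41.9, 51.9 and 2.71 CPM in DM and 84.1, 40.4, 39.5 and 47.5 CPM in CTL. Zranb2, a splicing protein gene, had 41.4, 46.8, 28.2 and 38.4 CPM in DM and 2.61, 34.4, 22.9 and 42.5 CPM in CTL, and 2.64 CPM in DMH2 when scaled over all 12 libraries.

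Acacb, the carboxylase that guards fat oxidation, had 6.49, 7.16, 15 and 7.66 CPM in DM and 39.5, 19.8, 19.8 and 22.8 CPM in CTL, without overlap and without a call (-1.49 ± 0.34, adjusted p = 0.0529, edgeR). Abcb11, the bile salt export pump, had 481, 425, 523 and 181 CPM in DM and 270, 94.8, 73 and 92.1 CPM in CTL and was called without CTL1 only (2.22, adjusted p = 0.0344, against 0.116 with it, edgeR). Mdm2, which degrades p53, had 44.9, 66.1, 78.1 and 52.1 CPM in DM and 4.82, 30.5, 27.7 and 24.9 CPM in CTL and was likewise called without CTL1 only (1.12, adjusted p = 0.0417, edgeR).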
